A study of Mus musculus with 27 samples.

Results

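Late homeostatic assembloids were compared with hepatocyte organoids (HepOrgs) kept in the same medium for a similar time, gene by gene, to ask which transcripts differ when hepatocytes are cultured with their periportal neighbours. The libraries were assigned by their sample titles: 3 libraries of homeostatic assembloids at 2.5 weeks (18 days) and 3 libraries of HepOrgs at passage 2 after 2 weeks (14 days) in minimal medium (MM), 6 of the 27 libraries of the series that carry a usable label. All libraries are from mouse cells labelled WT, derived from adult animals of both sexes aged 8 to 25 weeks on a C57BL/6 background. Both groups were kept in MM, a basal medium with 30% Wnt3a-conditioned medium and the ROCK inhibitor Y-27632, so the comparison does not test the medium. The HepOrgs had first been expanded in a Wnt-containing medium, in cultures enriched for a grape-like shape. For assembloids, HepOrgs of that shape were picked by hand. Assembloids had been made by rocking, in each well, 10 such HepOrgs for up to 24 h with 1000 cholangiocytes from cholangiocyte organoids and 250 portal mesenchymal cells sorted for a PDGFRα-H2B-GFP reporter and SCA1. Cholangiocytes in this system usually carry a nuclear tdTomato reporter. An assembloid library is thus a mixture of 3 cell types, and the 2 groups also differ by 4 days of culture. They differ too by the picking of grape-like HepOrgs, which the methods describe for assembloids. Neither can be told apart from the assembly. The sample titles give neither the animal nor its sex, so a difference in donors between groups cannot be told apart from the assembly.

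The periportal region is where blood enters the liver lobule and where bile leaves it. Hepatocytes secrete bile into canaliculi that drain into ducts lined by cholangiocytes, and portal fibroblasts form the collagen-rich sheath around the ducts. Hepatocytes near the portal tract are specialised for the urea cycle and for glucose production, whereas those around the central vein carry out glutamine synthesis and much of the cytochrome P450 metabolism.

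The 6 libraries held between 35069727 and 57472382 counts, and between 14016 and 15375 genes had at least 1 count. Mitochondrially encoded genes took between 1.93% and 3.44% of the counts. Per-library values below are CPM, counts scaled to a common library size, with TMM factors over these 6 libraries. CPM is not divided by gene length, so it serves only to compare one gene between libraries. Counts come from amplified cDNA without molecular identifiers, so counting error understates the error of a value. The labels do not say whether replicates came from separate animals or cultures, and the p-values measure only the spread between these libraries.

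The reporters separated the groups as labelled, but unevenly. No HepOrg library held a single count of eGFP or tdTomato, a level that allows up to 3 counts per library. The assembloid libraries held 24, 33 and 855 counts of eGFP and 86, 52 and 2224 counts of tdTomato in replicates 1 to 3. Most reporter signal was therefore in assembloid replicate 3, and neither row passed the test across all genes (edgeR quasi-likelihood test with Benjamini-Hochberg adjustment, adjusted p = 0.246 for eGFP and 0.243 for tdTomato). 

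The summed level of the 10 hepatocyte markers was 65400, 44600 and 28600 CPM in the 3 HepOrg libraries and 57800, 61300 and 60300 CPM in the 3 assembloid libraries, so the assembloids lay within the HepOrg range. The 6 cholangiocyte markers summed to 47.6, 57.0 and 120 CPM in HepOrgs and to 221, 147 and 119 CPM in assembloids. The 9 mesenchyme markers summed to 82.4, 76.5 and 194 CPM in HepOrgs and to 157, 233 and 175 CPM in assembloids. For both lists HepOrg replicate 3 reached the range of the assembloids, while HepOrg replicates 1 and 2 lay below every assembloid library. The reporter counts did not follow these sums among the assembloids. Replicate 3, with most reporter counts, had the lowest cholangiocyte sum of the assembloids, and replicate 2 had the highest mesenchyme sum. Why they differed was not tested. In a bulk sample, more cells of a type and more RNA per cell cannot be told apart.

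HepOrg replicate 3 stood apart in a further way. Its 10 immune markers summed to 668 CPM, against 6.97 and 26 CPM in the other HepOrg libraries and 4.03 to 4.82 CPM in the assembloids. Most of that sum was Lyz2, the lysozyme of myeloid cells, at 622 CPM, and Adgre1, which encodes the macrophage antigen F4/80, was at 8.50 CPM there against 0 in the other HepOrg libraries. The markers of endothelial cells summed to at most 2.14 CPM in any of the 6 libraries. The list of mesothelial, neural and muscle markers summed to 1.36, 1.21 and 3.70 CPM in HepOrgs and to 48.6, 30.9 and 17.6 CPM in assembloids, nearly all of it from Msln (mesothelin) at 47.4, 29.0 and 16.6 CPM. Of the 10 markers on that list, 4, 4 and 5 were at 0 in the assembloid libraries, so the sum reflects a single gene. Some list medians and the count of genes past the threshold are given below with and without HepOrg replicate 3, and so are several single genes. Medians given only with that library can move without it, in some lists across 0. The part of any other cell types in the differences below was not tested.

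**Figure D1:**
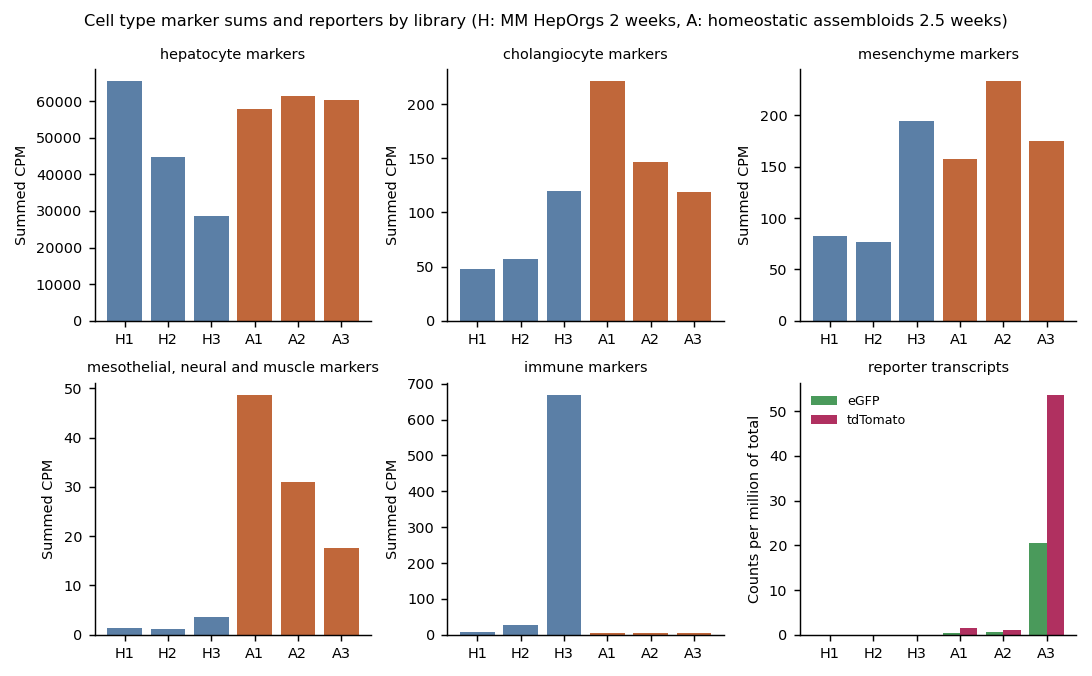
Summed CPM of 5 lists of cell type markers and depth-scaled counts of the 2 reporter rows (vertical axes, linear from 0) in each library (H1 to H3, MM HepOrgs at 2 weeks; A1 to A3, homeostatic assembloids at 2.5 weeks). Hepatocyte markers of the groups overlap, cholangiocyte and mesenchyme markers are low in H1 and H2 only, immune markers reach 668 CPM in H3, and reporter signal is concentrated in A3.

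Of 12577 genes tested, 9 passed an adjusted p of 0.05 (0.0716%), 3 of them higher in the assembloids (0.0239%) and 6 lower (0.0477%). Assembloids had more of the portal matrix proteoglycan gene Lum, of the guidance cue gene Ntn1 and of Cyp2a12, a hepatic cytochrome P450, and less of Mup7, Mup18, Ankrd37, Ffar4, Fbxo2 and Bmp8b. The median log2 fold change over all tested genes was 0.01, a value that the scaling sets close to 0. At an unadjusted p under 0.05 there were 1689 genes, 846 higher and 843 lower. The 3 assembloid libraries all lay above the 3 HepOrg libraries for 1348 genes (10.7%) and all below for 1278 genes (10.2%), and these percentages are the background for the counts of list members given below.

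Lum encodes lumican, a small leucine-rich proteoglycan that binds collagen fibrils and is made by fibroblasts. It lies at chr10:97400990-97408577 on the plus strand (GRCm39, ENSMUSG00000036446). Its level was 1.27, 2.12 and 1.48 CPM in the HepOrgs and 15.5, 18.7 and 24.3 CPM in the assembloids. The lowest assembloid was thus far above the highest HepOrg library, HepOrg replicate 3 included, an 11.9-fold difference (log2 fold change 3.58 ± 0.27 SE, adjusted p = 0.0176).

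Ntn1 encodes netrin 1, a secreted laminin-related cue for axons and migrating cells (chr11:68100190-68291662, minus strand, ENSMUSG00000020902). It was close to absent from HepOrgs, with 1, 2 and 3 counts in the 3 libraries, against 122, 98 and 128 counts in the assembloids. The fitted log2 fold change of 5.64 ± 0.59 SE (95% interval 4.27 to 7.01, adjusted p = 0.0384) rests on these few HepOrg counts.

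Cyp2a12 encodes a steroid-hydroxylating cytochrome P450 of hepatocytes (chr7:26728506-26736800, plus strand, ENSMUSG00000060407). The HepOrg libraries were close together at 56.8, 54.8 and 63.3 CPM, and the assembloids had 169, 203 and 133 CPM. This was a rise of 2.89-fold (log2 fold change 1.53 ± 0.17 SE, adjusted p = 0.0470). It was the 1 gene past the threshold in the higher direction that is known as a hepatocyte gene.

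Mup7 and Mup18 belong to the major urinary proteins, lipocalins that the mouse liver secretes into blood and that carry pheromones in urine. Their genes stand in a cluster on chromosome 4 and are alike in transcribed and in flanking sequence. The 161 bases below come from the region before each gene, the last few of them inside Mup7 and none inside Mup18, and are identical at 159 positions (98.8%), with the differing bases in capitals. They are shown as an example of how alike the copies are, and the sharing within transcripts is given after the values.
Mup7, GRCm39 chr4:60070482-60070642, minus strand: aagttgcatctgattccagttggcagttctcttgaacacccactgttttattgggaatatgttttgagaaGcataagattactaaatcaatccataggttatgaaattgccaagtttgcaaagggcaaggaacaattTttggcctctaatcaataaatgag
Mup18, GRCm39 chr4:61592463-61592623, minus strand: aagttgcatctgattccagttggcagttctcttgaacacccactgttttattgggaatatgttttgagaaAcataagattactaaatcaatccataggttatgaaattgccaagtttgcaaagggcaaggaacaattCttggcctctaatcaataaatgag

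Mup7 (chr4:60066445-60070490, ENSMUSG00000073842) had 37.7, 21.4 and 45.1 CPM in HepOrgs and 0.691, 1.62 and 0.866 CPM in assembloids, a 32.5-fold difference (log2 fold change -5.02 ± 0.42 SE, adjusted p = 0.0176). Mup18 (chr4:61588409-61592373, ENSMUSG00000078674) had 99.3, 86.1 and 75.3 CPM in HepOrgs and 7.17, 9.45 and 2.76 CPM in assembloids, a 13.4-fold difference (log2 fold change -3.74 ± 0.42 SE, adjusted p = 0.0452). For both genes the groups were separated by a wide gap. Of all 100-base windows of the Mup7 transcript 76.2% also occurred without a mismatch in another gene of the family, and 86.6% of those of Mup18 did, so the 2 fold changes are uncertain as values of single genes.

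The table held 22 Mup genes, of which 20 were tested, and in 16 of these the 3 assembloid libraries were all below the 3 HepOrg libraries, against 10.2% of all genes. Most of these genes share most of their 100-base windows with another member, up to 100% for Mup19. The 16 are therefore not 16 separate measurements, and the share of all genes is no strict background for them. The median log2 fold change over the 20 was -3.22. Besides the 2 genes past the threshold, the next were Mup17 with 573, 473 and 295 CPM in HepOrgs and 32.0, 46.5 and 10.6 CPM in assembloids, and Mup22 with 282, 292 and 190 against 20.9, 45.9 and 14.1 CPM, both at an adjusted p of 0.0858. The lowest log2 fold change was that of Mup11, at -5.21 (13.5, 13.4 and 12.8 CPM against 0.270, 0.747 and 0.00 CPM, adjusted p = 0.0858).

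Members that share few windows with the others differed in size. Mup6, with 0% shared windows, had 7.14, 15.3 and 3.65 CPM in HepOrgs and 0.202, 0.430 and 0.703 CPM in assembloids (log2 fold change -4.32 ± 0.67 SE, adjusted p = 0.0858). Mup21, with 3.39%, had 52, 46 and 4.83 against 18, 7.36 and 8.23 CPM and overlapped (log2 fold change -1.61 ± 0.77 SE, adjusted p = 0.409). Mup4 and Mup5 were too low to be tested. Mup3, with 2.73% shared windows, had 5130, 4630 and 4720 CPM in HepOrgs and 2430, 2370 and 2670 CPM in assembloids, a smaller difference than in most of the family (log2 fold change -0.96 ± 0.16 SE, adjusted p = 0.0989). Mup20, which encodes the male pheromone darcin, was the 1 member with a positive estimate, at 11600, 4340 and 3360 CPM in HepOrgs and 9860, 9150 and 2750 CPM in assembloids, and its libraries overlapped (log2 fold change 0.17 ± 0.60 SE). Estimates within the family thus ran from -5.21 to 0.17.

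**Figure D2:**
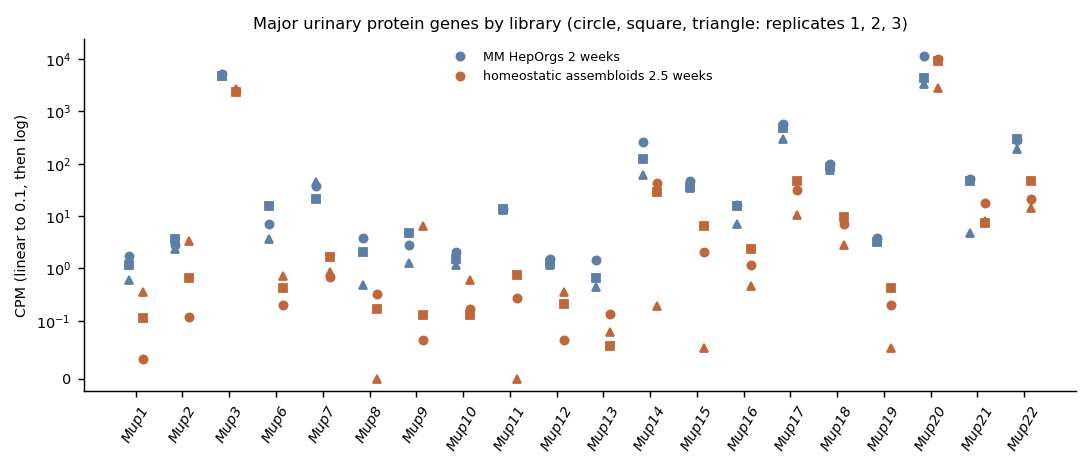
CPM of the 20 tested major urinary protein genes (vertical axis, logarithmic above 0.1) in each library of MM HepOrgs at 2 weeks and homeostatic assembloids at 2.5 weeks. All assembloid points lie below all HepOrg points in 16 of the 20 genes, whereas those of Mup2, Mup9, Mup20 and Mup21 overlap.

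Ankrd37 encodes a small ankyrin repeat protein and is known as a gene induced by low oxygen (chr8:46449939-46458744, minus strand, ENSMUSG00000050914). It had 7.21, 8.60 and 9.20 CPM in HepOrgs and 1.45, 1.31 and 1.16 CPM in assembloids. Replicates of each group lay close together, and the difference was 6.35-fold (log2 fold change -2.67 ± 0.22 SE, adjusted p = 0.0176). The 250 bases before its canonical start are shown because ACGTG is a form of the core of the hypoxia response element. It is given in capitals where it occurs on either strand, and other forms of the core were not searched.
Ankrd37, GRCm39 chr8:46452906-46453155, minus strand: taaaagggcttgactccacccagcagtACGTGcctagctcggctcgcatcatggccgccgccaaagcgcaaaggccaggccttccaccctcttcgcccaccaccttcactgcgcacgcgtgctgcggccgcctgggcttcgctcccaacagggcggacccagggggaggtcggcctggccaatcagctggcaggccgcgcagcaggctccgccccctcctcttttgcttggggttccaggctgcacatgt
The letters occurred once, 223 bases before the start. The same 5 letters were found in 17.1% of the 250-base regions before all 21603 genes searched, so a match by itself is common and is a description only.

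The remaining 3 genes past the threshold were lower in the assembloids. Ffar4 encodes a receptor for long-chain fatty acids (chr19:38085307-38105287, plus strand) and had 23.8, 33.5 and 31.9 CPM in HepOrgs and 7.12, 8.09 and 5.19 CPM in assembloids (log2 fold change -2.13 ± 0.21 SE, adjusted p = 0.0384). Fbxo2 encodes an F-box protein that recognises glycoproteins for ubiquitination (chr4:148244593-148250881, plus strand) and had 11.1, 13.5 and 16.4 CPM against 2.77, 2.39 and 3.52 CPM (log2 fold change -2.24 ± 0.23 SE, adjusted p = 0.0384). Bmp8b encodes a ligand of the TGF-β superfamily (chr4:122998923-123025892, plus strand) and had 42.6, 33.9 and 38.8 CPM against 16.8, 17.9 and 18.1 CPM, the smallest fold change of the 9 (log2 fold change -1.13 ± 0.12 SE, adjusted p = 0.0452). In all 3 genes the groups did not overlap.

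The libraries at 1 week in culture gave a second look at the 9 genes, and they share no library with the late comparison. Whether they share animals or cultures with it is not given, so agreement between the times may not be independent. In log2 CPM, HepOrg replicate 3 at 2 weeks correlated best with HepOrg replicate 3 at 1 week (0.963). Its correlations with HepOrg replicates 1 and 2 at 2 weeks were 0.948 and 0.953. With 3 HepOrg and 3 assembloid libraries at 1 week (12570 genes tested), the signs of all 9 log2 fold changes were the same as at the late time, from -4.90 for Mup18 to 5.50 for Ntn1. At 1 week assembloid replicate 2 stood apart, with 8465 genes detected and 2910 CPM of hepatocyte markers against 38500 to 97600 CPM in the other assembloids. Without it the signs were again the same, with log2 fold changes of 2.23 for Lum, 4.38 for Ntn1, 1.70 for Cyp2a12, -4.11 for Mup7 and -3.02 for Ankrd37. That of Ntn1 rested mostly on assembloid replicate 3, at 11.1 CPM against 0.533 CPM in replicate 1 and 0.169 to 0.331 CPM in HepOrgs. For Lum, assembloid replicate 1 (15.5 CPM) was close to HepOrg replicate 1 (14.4 CPM). In assembloid replicates 1 and 3, Cyp2a12 lay above all 1-week HepOrgs and Mup7 and Ankrd37 below. None of the 9 genes passed the test at 1 week (adjusted p = 1.00 for each with all 6 libraries). Without assembloid replicate 2 none passed either.

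**Figure D3:**
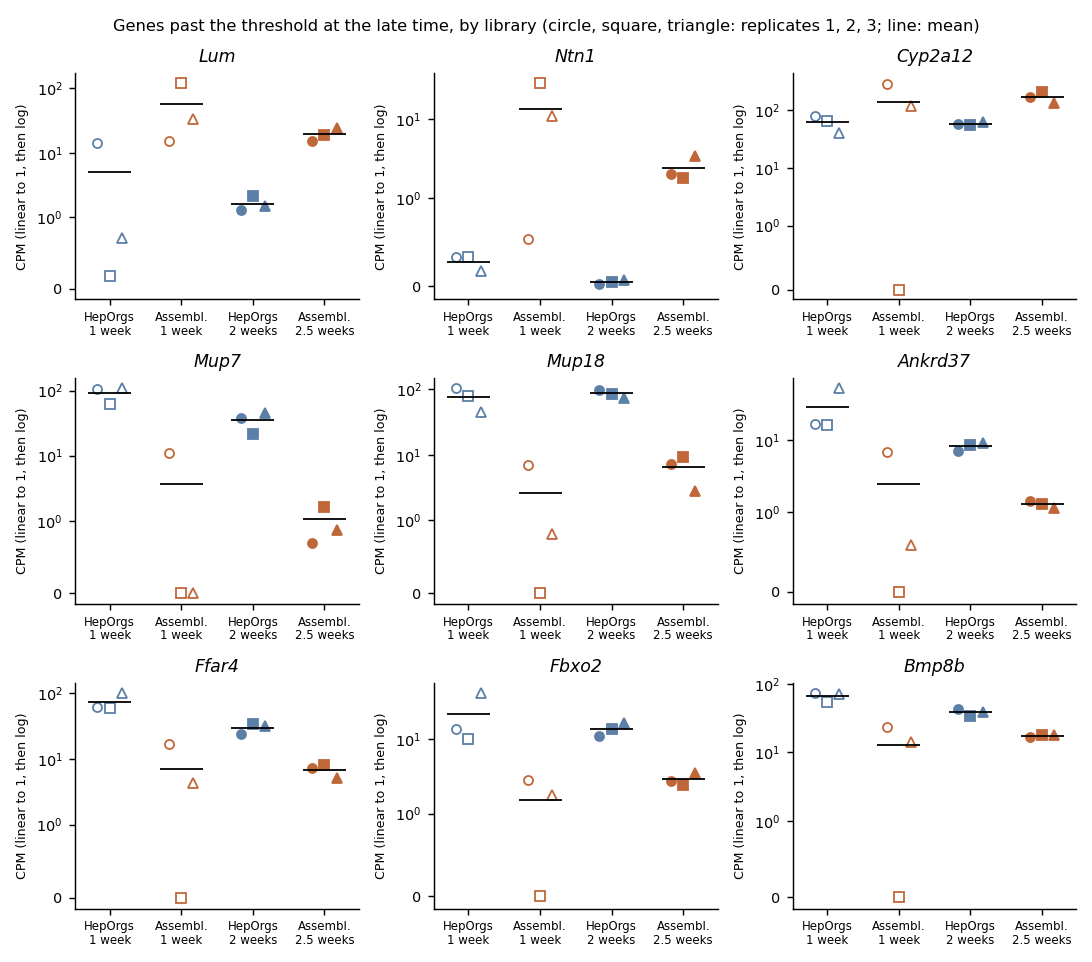
CPM (vertical axes, logarithmic above 1) of the 9 genes past the threshold in MM HepOrgs and homeostatic assembloids, by library, with group means as lines. Filled symbols are the late libraries that were tested and open symbols the 1-week libraries, whose CPM was scaled over 12 libraries. The late groups are separated in every panel, and the 1-week assembloid replicate 2 (open square) is at 0 for Cyp2a12 and the 6 lower genes.

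Genes of the portal mesenchyme and its matrix had positive medians. Of the 9 mesenchyme markers, 5 lay above in all assembloid libraries, none lay below and none passed the threshold (median log2 fold change 1.82). The highest estimate was that of the PDGF receptor gene Pdgfrb, at 0.00, 0.229 and 0.600 CPM in HepOrgs and 1.64, 2.30 and 2.08 CPM in assembloids (log2 fold change 2.85 ± 0.99 SE, adjusted p = 0.283). The lowest was Vim, the intermediate filament vimentin, at -0.70 ± 0.48. Col1a1, the main chain of type I collagen, had 2.68, 12.4 and 39.0 CPM in HepOrgs and 44.9, 61.3 and 60.9 CPM in assembloids (log2 fold change 1.63 ± 0.77 SE, adjusted p = 0.408). HepOrg replicates differed more among themselves for Col1a1 than replicate 3 differed from the assembloids, and without replicate 3 the log2 fold change was 2.87 (adjusted p = 0.0906).

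Of 35 collagens and matrix proteins tested, 8 lay above in all assembloid libraries, 2 below, and 1, Lum, passed (median log2 fold change 1.01). The highest estimate was that of Postn, the matrix protein periostin of activated fibroblasts, with 0.00, 0.00 and 0.175 CPM in HepOrgs and 6.32, 8.14 and 34.6 CPM in assembloids (adjusted p = 0.0858). Col8a1, a short-chain collagen, had 1.05, 0.292 and 0.450 against 4.32, 5.64 and 5.79 CPM (log2 fold change 3.13 ± 0.49 SE, adjusted p = 0.0858). Not every matrix gene lay on that side. Fn1, the fibronectin that hepatocytes also secrete, had the lowest estimate with 3420, 3120 and 2580 CPM in HepOrgs and 1270, 1700 and 1550 CPM in assembloids (log2 fold change -1.01 ± 0.19 SE, adjusted p = 0.113), and Col12a1 lay below as well (21.8, 18.5 and 28.9 against 10.3, 15.5 and 9.61 CPM). Among the 16 enzymes that process and crosslink collagen, 2 lay above and 7 below, and the extremes were Adamts2, a procollagen peptidase, at 1.78 ± 0.71 and Plod2, a lysyl hydroxylase, at -1.48 ± 0.26.

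Receptors, ligands and proteases of the fibroblast compartment varied. Ddr2, a collagen receptor, had 0.455, 0.292 and 1.00 CPM in HepOrgs and 1.35, 1.48 and 3.03 CPM in assembloids (log2 fold change 1.74 ± 0.59 SE, adjusted p = 0.272). Cdh11, the cadherin of fibroblasts, had 0.168, 0.125 and 0.425 against 1.67, 0.766 and 6.55 CPM (3.64 ± 0.92, adjusted p = 0.193), and Mmp2, a gelatinase, 3.85 ± 3.06 CPM in HepOrgs and 14.2 ± 5.15 CPM in assembloids, all assembloids above (1.89 ± 0.59, adjusted p = 0.246). These 3 genes were higher in every assembloid library without passing the threshold. The receptor tyrosine kinase gene Axl and its ligand gene Gas6 overlapped between groups, at -0.13 ± 0.47 and 0.48 ± 0.26, as did Mmp3 at 0.90 ± 0.96 and Timp2, an inhibitor of metalloproteases, at 0.18 ± 0.74. HepOrg replicate 3 had the highest HepOrg level of Axl, Mmp3 and Timp2, and without it the log2 fold changes were 0.48 for Axl, 2.33 for Mmp3 and 1.78 for Timp2 (adjusted p = 0.628, 0.288 and 0.0542). Timp1 is listed at 0 in every library here, as are 4334 genes in all 12 libraries of both times, and whether it was absent or not counted cannot be told from the table. Of the 29 fibroblast and stellate cell genes 14 were tested, 3 above and 2 below, and of the 14 metalloproteases and inhibitors tested 3 lay above and 1 below.

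Cholangiocyte genes depended on 1 HepOrg library. Krt19 and Krt7, the keratins of biliary epithelium, had 1.56, 0.917 and 14.1 CPM and 0.311, 0.0833 and 8.53 CPM in HepOrgs, against 58.0, 41.8 and 33.3 CPM and 68.5, 28.2 and 28.1 CPM in assembloids. Both were higher in every assembloid library, yet with HepOrg replicate 3 the spread was wide (log2 fold change 3.02 ± 0.93 SE, adjusted p = 0.244, and 3.82 ± 1.30 SE, adjusted p = 0.273). Epcam, Prom1 and Ezr overlapped, and HepOrg replicate 3 had 21.9, 27.1 and 29.5 CPM of them, more than at least 1 assembloid library. Without that library their log2 fold changes were 2.67, 2.29 and 1.04 (adjusted p = 0.136, 0.177 and 0.106). Sox9, a transcription factor of the biliary lineage, had the lowest estimate of the 6 markers, at 27.2, 32.7 and 18.6 CPM in HepOrgs and 16.8, 15.0 and 20.2 CPM in assembloids (-0.60 ± 0.22, adjusted p = 0.301). The chloride channel gene Ano1 had 0.742, 0.729 and 7.48 against 21, 12 and 12.6 CPM (2.36 ± 0.87, adjusted p = 0.301). Over 32 further biliary genes 3 lay above and 1 below, with a median of -0.10, or of 0.36 without HepOrg replicate 3.

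Leaving HepOrg replicate 3 out raised the number of genes past the threshold from 9 to 74 of 12884 (0.574%), 43 higher (0.334%) and 31 lower (0.241%). All 9 genes were among them. Leaving out any other single library had the opposite effect: 0 genes passed without HepOrg replicate 1, 2 without HepOrg replicate 2, 0 without assembloid replicate 1 or 2 and 1 without assembloid replicate 3. Among the 74, the higher ones included Krt7 (log2 fold change 7.75, adjusted p = 0.0182), Krt19 (5.17, adjusted p = 0.0142), Ano1 (4.36, adjusted p = 0.0143) and Col1a2, the second chain of type I collagen (3.14, adjusted p = 0.0473). Mgp, a matrix protein that binds calcium, had 0.00 CPM in HepOrg replicates 1 and 2, 0.55 CPM in replicate 3 and 17.4, 15.3 and 36.5 CPM in the assembloids (adjusted p = 0.0858 with replicate 3 and 0.0182 without). For Msln the adjusted p changed in the same way (adjusted p = 0.195 with and 0.0182 without). The lower ones included 5 Mup genes, the immunoglobulin receptor gene Pigr (-2.07, adjusted p = 0.0142), the immediate early gene Fos (-2.28, adjusted p = 0.0320) and Cyp7b1, an oxysterol hydroxylase (-1.51, adjusted p = 0.0359). Without that library the median log2 fold change was 2.48 for the cholangiocyte markers, 2.87 for the mesenchyme markers and 2.04 for matrix genes, while that of all genes was 0.01. A group of 2 libraries has little check on its own spread, and the library was left out after its values were seen. A fit with all 6 libraries that weighted each by its quality (limma-voom) called 91 genes (0.724%), 36 higher (0.286%) and 55 lower (0.437%), with all 9 among them.

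Hepatocyte identity genes had estimates on both sides of 0. Of the 10 hepatocyte markers 1 lay above, Apoa1 (5210, 4700 and 1970 CPM against 8420, 7700 and 6910 CPM), 1 below, Abcb4, and none passed, with a median of 0.19. Without HepOrg replicate 3 that median was -0.03. Alb, the gene of serum albumin, had 7750, 3590 and 8070 CPM in HepOrgs and 7730, 8670 and 5980 CPM in assembloids. Hnf4a, the nuclear receptor that maintains hepatocyte identity, had 178 ± 29.9 CPM in HepOrgs and 165 ± 13.1 CPM in assembloids (SD, n = 3 libraries each), and the 95% interval of its log2 fold change ran from -0.48 to 0.26. The interval for Alb was wider, from -0.57 to 0.98. Fgb, a fibrinogen chain, was at -0.13 ± 0.29 and overlapped.

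Transporters of bile acids and phospholipids were the list closest to 0. None of 16 tested passed or lay apart from HepOrgs in all libraries, and the median log2 fold change was 0.00. Abcb4, which moves phosphatidylcholine into bile, was counted among the hepatocyte markers and not among these 16. It lay below HepOrgs in all assembloid libraries, with 286 ± 41 CPM in HepOrgs and 229 ± 27 CPM in assembloids (SD, n = 3 libraries each) (log2 fold change -0.32, 95% interval -0.69 to 0.05, adjusted p = 0.419). Abcc2, the canalicular export pump for conjugated bilirubin, had 168, 146 and 219 against 223, 149 and 153 CPM (interval -0.53 to 0.48), and Abcc3, its basolateral counterpart, 318, 262 and 243 against 351, 308 and 310 CPM (interval -0.11 to 0.58). The bile salt export pump gene Abcb11 was at -0.14 (interval -0.79 to 0.52). In bile acid synthesis, the rate-limiting enzyme gene Cyp7a1 was at -0.02 ± 0.56, and Cyp8b1, which makes cholic acid, had the highest estimate of 18 genes with 7.02, 2.62 and 4.33 CPM in HepOrgs and 24.4, 15.7 and 90.0 CPM in assembloids (3.22 ± 0.71, adjusted p = 0.145).

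Periportal hepatocyte genes lay on the higher side more often than genes in general. Of 19 tested, 7 were above in all assembloid libraries, against 10.7% of all genes, and 0 were below. Arg1, the arginase of the urea cycle, had 178, 134 and 19.0 CPM in HepOrgs and 377, 296 and 386 CPM in assembloids (1.68 ± 0.67, adjusted p = 0.335), Otc, which makes citrulline, 0.455, 0.146 and 0.0250 against 2.01, 1.64 and 1.41 CPM (3.00 ± 0.82, adjusted p = 0.210), and Hsd17b13, a lipid droplet enzyme, 414, 260 and 116 against 761, 999 and 681 CPM (1.63 ± 0.42, adjusted p = 0.199). None passed the threshold, and HepOrg replicate 3 was the lowest library for each of these 3 genes. The list median was 0.53 with that library and 0.20 without it. Not all periportal genes shared the direction: Ass1 overlapped at 0.11 ± 0.37, and Pigr had the lowest estimate, at -1.55 ± 0.72.

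Pericentral genes were spread around 0, with 2 of 16 above, 3 below and a median of 0.03. Glul, the glutamine synthetase of cells next to the central vein, had 133, 125 and 189 CPM in HepOrgs and 141, 105 and 211 CPM in assembloids. Among 33 cytochrome P450 genes of a fixed list that did not hold Cyp2a12, 5 lay above and 4 below. Its extremes were the periportal Cyp2f2, at 2.20, 1.60 and 0.350 CPM in HepOrgs and 26, 17.8 and 12.4 CPM in assembloids (3.75 ± 0.60, adjusted p = 0.0908), and the pericentral Cyp2e1, at 372, 42.6 and 97.7 against 31.0, 1.29 and 3.35 CPM (-3.84 ± 1.29, adjusted p = 0.272). Cyp2f2 passed when HepOrg replicate 3 was left out (adjusted p = 0.0273), and Cyp2e1 did not (adjusted p = 0.230).

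Genes of cholesterol and fatty acid synthesis lay on the higher side more often than genes in general. Of 33 tested, 10 lay above in all assembloid libraries and 0 below, with a median of 0.33 and, without HepOrg replicate 3, of 0.31. Idi1, which isomerises isopentenyl diphosphate, had 29.4, 29.6 and 24.7 CPM in HepOrgs and 84.0, 53.4 and 73.0 CPM in assembloids (1.33 ± 0.18, adjusted p = 0.0858). Hmgcs1, an early enzyme of the mevalonate pathway, had 491, 519 and 465 against 1280, 790 and 874 CPM (1.00 ± 0.20, adjusted p = 0.132). In fatty acid oxidation and ketogenesis, 2 of 29 lay above and 5 below (median -0.17). No member of either list passed the threshold. DESeq2 (Benjamini-Hochberg adjusted p under 0.05), which called 541 genes on the same counts (4.3%, with 2.02% higher and 2.28% lower), called 7 members of the synthesis list higher and 3 of the oxidation list lower.

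Stress and early response genes lay on the lower side, with none past the threshold. Of 24 targets of ATF4 and of the unfolded protein response, which cells switch on when amino acids run short or proteins misfold, 10 lay below in all assembloid libraries and 1 above (median -0.37). Trib3, a pseudokinase, had 116, 191 and 136 CPM in HepOrgs and 76.5, 90.0 and 37.4 CPM in assembloids, Mthfd2, a mitochondrial folate enzyme, 46.0, 47.7 and 55.6 against 29.8, 28.2 and 21.1 CPM, and Slc7a5, an amino acid transporter, 3.14, 5.21 and 4.60 against 1.57, 1.12 and 1.16 CPM. The adjusted p-values were 0.235, 0.103 and 0.107. Of 19 immediate early genes 6 lay below and 0 above (median -0.68), with Egr1, a zinc finger transcription factor, at 87.5, 115 and 77.0 against 39.7, 48.9 and 32.0 CPM (-1.21 ± 0.21, adjusted p = 0.0989).

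Cell cycle genes had a median of 0.64 over 32 tested, 7 above, 0 below and none past the threshold. Top2a, the topoisomerase of dividing cells, had 0.527, 0.625 and 0.525 CPM in HepOrgs and 2.11, 0.654 and 1.98 CPM in assembloids (1.49 ± 0.53, adjusted p = 0.292), while Mki67 overlapped at 0.90 ± 0.77. Of 15 YAP target genes 5 lay above, 0 below and none passed (median 0.36). Ankrd1 and Ccn2, both standard YAP targets, had 6.90, 3.50 and 9.55 against 31.3, 14.8 and 10.3 CPM and 37.7, 14.5 and 27.4 against 105, 69.9 and 47.5 CPM (1.5 ± 0.49 and 1.48 ± 0.39, adjusted p = 0.259 and 0.203). Of 30 interferon and antigen presentation genes 0 lay above and 5 below (median -0.21, none past the threshold), with H2-Ab1, an MHC class II gene, at 3.86, 7.00 and 18.8 against 0.607, 2.24 and 2.27 CPM.

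**Figure D4:**
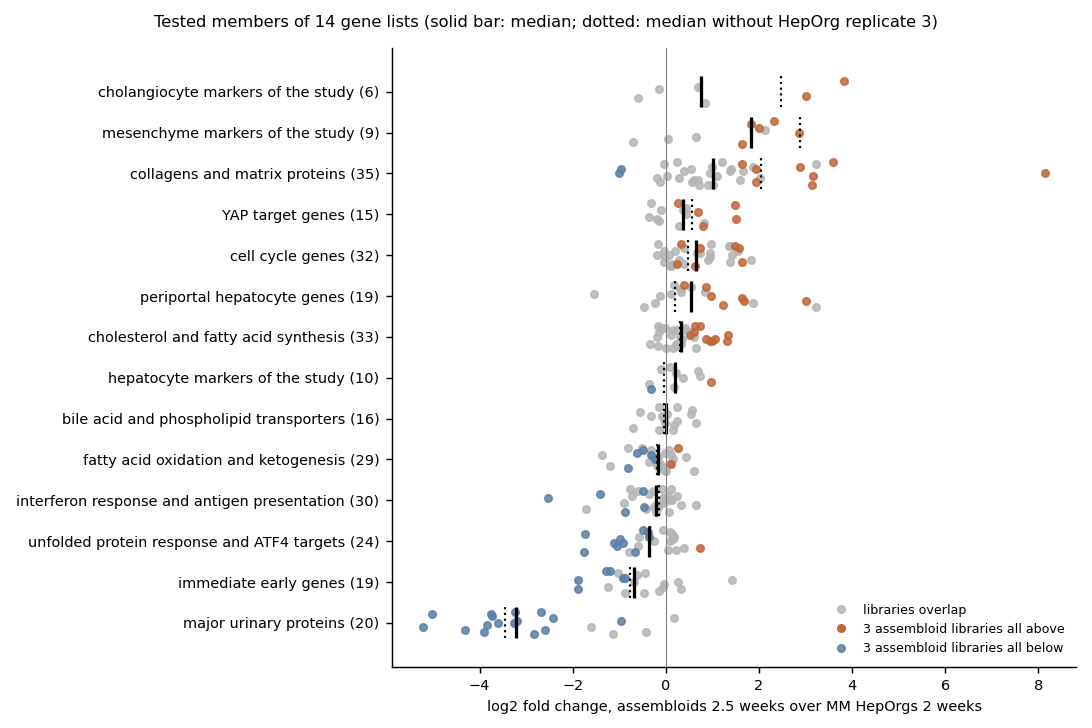
Log2 fold change of assembloids over HepOrgs (horizontal axis) for each tested member of 14 gene lists, with the number tested in brackets. Solid bars are list medians and dotted bars the medians without HepOrg replicate 3, which move from 0.77 to 2.48 for cholangiocyte markers and from -3.22 to -3.46 for major urinary proteins.

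Signals between the 3 cell types gave few separations. The neutrophil chemokine gene Cxcl1 had 110.0, 119 and 96.3 CPM in HepOrgs and 141, 199 and 147 CPM in assembloids (0.58 ± 0.17, adjusted p = 0.226), and Cxcl12, the ligand of CXCR4, overlapped at 0.18 ± 0.20. Ccl11 was too low to be tested, at no more than 0.467 CPM in any library. In the TGF-β and PDGF list 1 of 27 lay above and 5 below. Its extremes were Ltbp2, a latent TGF-β binding protein, at 2.84 ± 0.55, and Bmp2, a bone morphogenetic protein, at -4.28 ± 1.23. Of 18 Wnt target genes 5 lay above, led by the antagonist gene Dkk2, and 3 below, led by the transcription factor gene Lef1 (0.886, 1.29 and 7.65 against 0.337, 0.318 and 0.162 CPM). The integrin gene Itgb1 and the tetraspanin gene Cd63 overlapped, at -0.17 ± 0.22 and 0.16 ± 0.17.

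The remaining lists held no gene past the threshold. Above and below were 3 and 3 of 24 liver transcription factors, 3 and 1 of 33 coagulation and complement factors, 1 and 1 of 19 acute phase proteins, 3 and 1 of 25 plasma carriers, 1 and 0 of 23 chemokines and cytokines, 0 and 1 of 9 Notch genes, 4 and 6 of 33 integrins, cadherins and junction genes, 1 and 0 of 7 keratins, 1 and 1 of 18 p53 and senescence genes, 2 and 0 of 20 NRF2 targets and 4 and 2 of 13 mitochondrially encoded genes. Medians of these lists lay between -0.15 for Notch signalling and 0.60 for keratins. Without HepOrg replicate 3 the medians of these 2 lists were 0.15 and 0.58. Apom, an apolipoprotein of HDL, was the member nearest to the threshold, at 140.0, 103 and 88.0 CPM in HepOrgs and 261, 274 and 241 CPM in assembloids (1.23 ± 0.19, adjusted p = 0.0858). Of the 10 immune markers 3 were tested, all with negative estimates, from Csf1r at -0.34 to Lyz2 at -9.37. Without HepOrg replicate 3 these were 1.44 and -3.94. Of the endothelial markers only Stab2 was tested (2.44 ± 0.85). No haemoglobin gene was tested.

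Across all genes the 1-week libraries, which may share their source with the late ones, leaned the same way. Of the genes that lay above in all late assembloids and were tested at 1 week, 798 of 1292 (61.8%) had a positive log2 fold change there, against 39.2% of all genes tested, and of those that lay below, 1017 of 1273 (79.9%) were negative, against 60.8%. Without 1-week assembloid replicate 2 the shares were 1059 of 1316 (80.5%, against 49.8%) and 1082 of 1275 (84.9%, against 50.2%). Some lists differed in size rather than direction: without that library the median of the periportal list was 0.89 at 1 week and that of the immediate early list -0.87. The cell cycle median was -0.44 at 1 week against 0.64 at the late time, and that of ATF4 targets was -0.06. 

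No difference between the late and the 1-week effect passed the threshold. In the 1-week comparison 0 of 12570 genes passed with edgeR (0%), 372 had an unadjusted p under 0.05, and DESeq2 called 118 (0.939%). In the test of the late effect minus the 1-week effect, 0 of 13209 passed with edgeR (0%), 310 had an unadjusted p under 0.05 and DESeq2 called 1 (0.00757%). The median SE of a log2 fold change was 1.39 at 1 week and 0.30 without assembloid replicate 2, compared with 0.21 at the late time. With assembloid replicate 2 the 1-week libraries could thus show only large differences. Without it 0 of 13016 genes passed with edgeR all the same, and 1687 had an unadjusted p under 0.05. No cell cycle gene passed the test of the difference between the times.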

How the data were processed

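RNA was extracted from organoids and assembloids, amplified by SMARTseq2 and sequenced in paired reads of 100 bases. The authors aligned reads to GRCm39 with Ensembl release 109 using STAR 2.7.11b and counted them per gene with featureCounts 2.0.6. How reads that map to several genes were counted is not given in the sources used here, and strand is not marked by this library type. The deposited counts are whole numbers per gene without normalisation, and a deposited TPM column per gene was used in 2 alternatives only. The table held 37 libraries. 10 had no matching label and were not used.

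Here, genes were kept with edgeR's filterByExpr (minimum count 10, minimum total 15), scaled by TMM and tested with the quasi-likelihood test of edgeR 4.0.16 in R 4.3.3, two-sided, with Benjamini-Hochberg adjustment at 0.05. Each group had 3 libraries, leaving 4 residual degrees of freedom (prior 3.47). Errors on log2 fold changes are standard errors (SE), and 95% intervals use a t quantile of 2.335 standard errors. The late effect minus the 1-week effect was an interaction term over 12 libraries. Alternatives were DESeq2 1.42.0, limma 3.58.1, other filters, blocks and sample sets. The edgeR fit of the late comparison was tested on simulated counts with known fold changes. The other fits were not tested in this way.

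The members and gene lists were chosen with earlier results of these data known. For some lists, but not all, the members with the highest and lowest log2 fold change are named. Named too are 20 genes named by the study, and, by size of change among genes past the threshold with a mean log2 CPM of at least 5, Cyp2a12 and Mup18. The other genes past the threshold, and the further genes named, were chosen after their values were seen.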

Additional observations from a re-analysis of the deposited data

How the results depend on the processing

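The number of genes past the threshold depended on the processing more than the direction of the 9 genes did. Against 9 with the main settings, the count was 541 with DESeq2 (254 higher, 287 lower), 14 without a filter on low counts, 19 with limma on log2(TPM + 1), 0 with the replicate block and 0 with all 27 libraries or the 12 libraries of both times in 1 fit. Among alternatives added after seeing the data it was 91 with limma-voom and sample quality weights, and 0 with 26 or 11 libraries, where the 1-week assembloid replicate 2 was left out. Leaving out 1 library at a time gave 0 to 74. It was 0 without HepOrg replicate 1, 2 without HepOrg replicate 2, 74 without HepOrg replicate 3, 0 without assembloid replicate 1 or 2 and 1 without assembloid replicate 3. The 1-week count of 0 became 118 with DESeq2 and 197 with all 27 libraries, and the count of 0 for late minus 1 week became 1 with DESeq2. The causes of these changes were not tested.

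Over 19 alternative fits none of the 9 genes changed sign, and they stayed past the threshold in 74 of 168 gene and fit pairs. Adjusted p-values of each ran up to 1.00. Of 156 named genes 18 changed sign in at least 1 alternative, never while past the threshold. Of 38 list medians 19 kept their sign in every alternative, those of mesenchyme, matrix, cholangiocyte, periportal, lipid synthesis, ATF4, immediate early and major urinary protein genes included, and the median of hepatocyte markers changed sign in 1. Same-numbered libraries of the 2 groups did not deviate together (correlations -0.04, -0.107 and -0.21), and no assembloid library correlated best with its own number. These values gave no ground to pair the libraries in the main fit. With 3 libraries a group they cannot exclude that same-numbered libraries shared animals or cultures. The replicate block costs degrees of freedom. With 3 libraries a group, a gene with the median SE of 0.211 needs a large difference to pass among 12577 genes.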

Other observations

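Ankrd37 was the gene of lowest adjusted p among those below HepOrgs together with Mup7, and the gene next to the threshold was Egln3, the prolyl hydroxylase that hypoxia induces, with 56.9, 108 and 72.9 CPM in HepOrgs and 16.1, 12.2 and 7.85 CPM in assembloids (log2 fold change -2.71 ± 0.33 SE, edgeR adjusted p = 0.0621). A list of 48 genes known to be induced by low oxygen was written after these values were seen, so its counts describe and do not test. Of 47 tested, 33 lay below in all late assembloid libraries and 1 above, against 10.2% and 10.7% of all genes, and the median log2 fold change was -0.55 against 0.01 for all genes. With edgeR 1 member passed the threshold (Ankrd37), and DESeq2 called 20 lower and 1 higher.

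The members differed widely in size. Apln, a vascular peptide, had 3.18, 3.25 and 2.60 CPM in HepOrgs and 0.185, 0.0187 and 0.00 CPM in assembloids (edgeR adjusted p = 0.0989), and Ndufa4l2, a mitochondrial protein, 77.5, 146 and 133 against 18.1, 7.27 and 1.30 CPM (adjusted p = 0.143). The endoplasmic reticulum oxidase gene Ero1a had 75.2, 120.0 and 240.0 against 43.9, 43.9 and 36.9 CPM (adjusted p = 0.143), and the glycolytic enzyme gene Pfkp 242 ± 47.4 CPM in HepOrgs and 119 ± 12.2 CPM in assembloids (SD, n = 3 libraries each, edgeR adjusted p = 0.101). The glucose transporter gene Slc2a3 had the highest estimate and overlapped, with 0.455, 0.250 and 0.275 against 0.320, 0.336 and 3.41 CPM. Without HepOrg replicate 3 the median of the list was -0.57. At 1 week, in libraries that took no part in writing the list, the median was -1.21 over 47 genes, against -0.23 for all genes tested. Without assembloid replicate 2 it was -0.95, against -0.003 for all genes tested. Those libraries may share their source with the late ones. Oxygen was not measured.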
